A study of Mus musculus with 18 samples.

Results

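The genes described here encode the oxidative phosphorylation machinery: 52 genes, of which 39 lie in the nuclear genome and 13 in mitochondrial DNA, out of 54532 genes in the count table. They were taken as a list of mouse symbols matched to Ensembl gene identifiers. The rule holds no measured value, but the list was drawn up with earlier results of these data known, and all 52 had a row and passed the low-count filter. RNA with poly(A) tails was sequenced from the gastrocnemius, the large calf muscle, of female C57BL/6 mice. The 6 groups of 3 libraries were Zfp697 mKO muscle, in which the labels give a knockout of Zfp697 confined to skeletal muscle, and flox/flox muscle, each from mice kept in conventional cages (control), after 10 days of hindlimb unloading, and after unloading followed by 3 days of reloading. Both genotypes carry the floxed allele as far as the labels say, the driver of the deletion and the age of the mice are not given in the labels, and other cells of the muscle are not described as having lost the gene.

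Oxidative phosphorylation runs along the inner mitochondrial membrane. Complexes I and II pass electrons from NADH and succinate to ubiquinone, complex III passes them on to cytochrome c, complex IV hands them to oxygen, and complex V, the ATP synthase, uses the proton gradient built on the way to make ATP. Complex II is encoded wholly in the nucleus, while complexes I, III, IV and V join nuclear subunits, imported from the cytosol, with core subunits transcribed and translated inside the mitochondrion, so both genomes have to supply each of these enzymes.

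Total counts ran from 45069595 to 51592566 per library. Nothing in the labels ties the libraries of a group to separate mice, so the p-values here reflect only how far libraries of a group differ, and that may be technical. Library mKO reloading replicate 2 stood apart from the other 2 of its group: its TMM factor, a scaling factor for library composition, was 1.05 against 0.960 and 0.952, and its summed macrophage marker level was 232 CPM against 183 and 161 CPM. CPM denotes counts scaled to library size with that factor applied. The targeted gene Zfp697 had 48 to 113 counts per mKO library and 45 to 137 per flox library, and its mKO minus flox difference at reloading was -0.61 ± 0.25 log2 (edgeR, adjusted p = 0.172). The deleted part is not named in the labels and counts were summed over the whole gene, so this value does not check the genotype labels. In these bulk samples, fewer cells of a type and less RNA per cell cannot be told apart.

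The 13 mitochondrial members were not all measurable from this table. A stretch of chromosome 1 (GRCm38, 24611535 to 24616197, minus strand) carries 7 annotated genes that copy mitochondrial DNA, and a read that falls inside an identical stretch has more than 1 place to go. The share of 50-base windows identical to a copy was 99.5% for mt-Co2, 99.9% for mt-Co3, 99.5% for mt-Atp6, 98.8% for mt-Nd4l and 98% for mt-Nd3. mt-Atp8 has no annotated copy and had 0% of such windows. It begins in the 233 bases between the copied parts of mt-Co2 and mt-Atp6 and runs into mt-Atp6. The copies of these 2 genes are also 233 bases apart on chromosome 1, and mt-Atp8 was grouped with the copied genes on that spacing alone. These 6 genes together held 0.0846 to 0.203% of the counts on mitochondrial members. Their values are uncertain. The edgeR fit over all 18 libraries called none of them in the 12 comparisons. Other fits did. In flox reloading against flox control, 8 mitochondrial members were called lower with a replicate block or with only the compared groups. Without a low-count filter it was 10, and both counts exceed the 7 genes outside this set. Copies cover 62.2% of the windows of mt-Nd4 and 28.7% of those of mt-Co1, and none of mt-Nd1, mt-Nd2, mt-Nd5, mt-Nd6 or mt-Cytb. The 7 genes in these last 2 sets carry the results on mitochondrial DNA below.

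The pair mt-Nd3, a complex I core subunit, and its chromosome 1 copy Gm28438 shows how little sequence separates the 2 loci. Over the 345 bases they share there was 1 difference, T3C counted from the first base of mt-Nd3, which lies at position 9461 of mitochondrial DNA. The first 60 bases of each, 5′ to 3′ from the GENCODE transcripts of GRCm38, are shown with that base in capitals.
mt-Nd3: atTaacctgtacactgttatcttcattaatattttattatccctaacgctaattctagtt
Gm28438: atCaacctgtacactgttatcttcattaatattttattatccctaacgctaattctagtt
In mKO control replicate 1, mKO unloading replicate 3, mKO reloading replicate 1 and flox unloading replicate 3, mt-Nd3 stood at 17.9, 17.97, 18.4 and 23.3 CPM, and Gm28438 at 2.55, 2.61, 2.72 and 2.29 CPM. In the other 14 libraries mt-Nd3 lay between 1.29 and 7.86 CPM and Gm28438 between 27.3 and 68.9 CPM. The 2 rows thus changed places between libraries of the same group, and the base present in these samples was not read here. mt-Nd3 changes between groups are therefore not interpretable, including its log2 fold change of 2.51 ± 1.07 for mKO against flox at reloading (edgeR, adjusted p = 0.196).

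**Figure D1:**
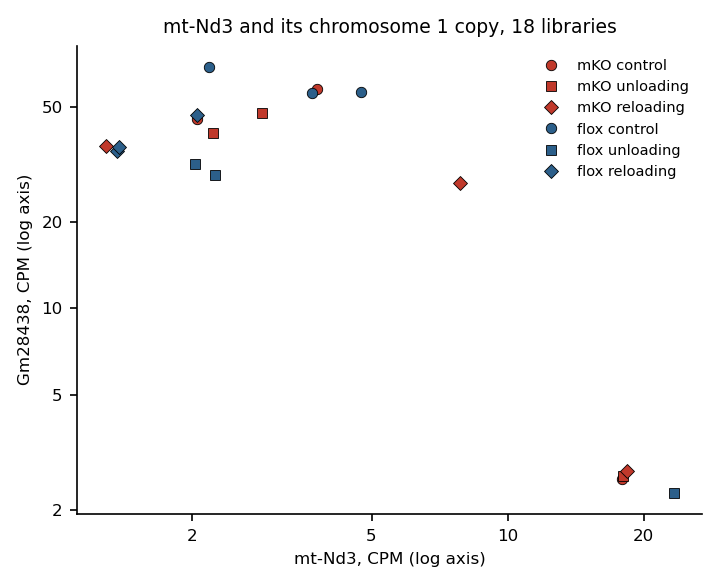
CPM of mt-Nd3 (x, log axis) against CPM of its chromosome 1 copy Gm28438 (y, log axis), 1 point for each of the 18 libraries, coloured by genotype and shaped by loading. In 4 libraries from 4 groups mt-Nd3 was at 17.9 to 23.3 CPM with Gm28438 at 2.29 to 2.72 CPM, and in the other 14 the copy held most of the reads.

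Per length, the 7 measurable mitochondrial genes outran every nuclear subunit. Averaged over the 18 libraries and scaled per kilobase of transcript (RPKM), mt-Co1, the catalytic subunit of complex IV, stood at 23850 RPKM, mt-Cytb at 15070, mt-Nd1 at 13490, mt-Nd2 at 10220, mt-Nd5 at 5754, mt-Nd4 at 5244 and mt-Nd6 at 5233 RPKM. The highest nuclear members were the ATP synthase α subunit gene Atp5a1 at 667 RPKM, Cox6a2, the muscle form of a complex IV subunit, at 651 RPKM, and the ATP synthase β subunit gene Atp5b at 617 RPKM. Ndufb5, an accessory subunit of complex I, had the lowest nuclear level at 30.4 RPKM. mt-Nd6 is the one mitochondrial protein gene on the opposite strand, and the counting shows no strand setting. Reads of its antisense neighbour cannot be told apart from its own, here or in the mt-Nd6 changes below. The RPKM of mt-Nd4 and mt-Co1 used their whole length, although copies cover 62.2% and 28.7% of their windows. The order among the 7 genes is therefore uncertain.

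The balance between the 2 genomes shifted at reloading in both genotypes. The ratio of counts on the 7 mitochondrial genes to counts on the 39 nuclear genes, a value that no library scaling changes, was 7.16, 6.43 and 7.45 in the mKO control libraries, 7.33, 7.97 and 7.39 after mKO unloading, and 5.92, 5.59 and 5.97 after mKO reloading. In flox muscle it was 7.13, 6.41 and 7.69 in control, 7.30, 6.85 and 7.52 after unloading, and 5.87, 5.90 and 6.23 after reloading. All 6 reloading libraries, from 5.59 to 6.23, lay below all 12 control and unloading libraries, from 6.41 to 7.97, whereas control and unloading overlapped in both genotypes. With the 27 nuclear members that have no near-identical transcript of another gene, the same ratio was 7.004 to 7.906 in the 6 reloading libraries and 7.998 to 10.03 in the other 12. The ratio is given as a description with no test, since the genes were chosen with results of these data known.

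Each side of the ratio was also taken as a share of counts. The 7 mitochondrial genes took 10.9 ± 1.05% of all counts in mKO control, 9.99 ± 0.631% in mKO unloading and 8.78 ± 1.04% in mKO reloading libraries (mean ± SD, n = 3 each). In flox muscle they took 11.02 ± 0.799% in control, 9.59 ± 0.470% in unloading and 8.31 ± 0.151% in reloading libraries. The 39 nuclear genes, as a share of counts outside mitochondrial DNA, held 1.75 ± 0.0658% in mKO control, 1.47 ± 0.0334% in mKO unloading and 1.65 ± 0.162% in mKO reloading libraries. The flox values were 1.76 ± 0.0295% in control, 1.47 ± 0.0549% in unloading and 1.51 ± 0.0331% in reloading libraries. By group mean, both shares were lower after unloading than in control in both genotypes. The nuclear share was lowest after unloading, and the mitochondrial share was lower again after reloading. The reloading and unloading libraries overlapped for the nuclear share in both genotypes and for the mitochondrial share in mKO muscle.

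**Figure D2:**
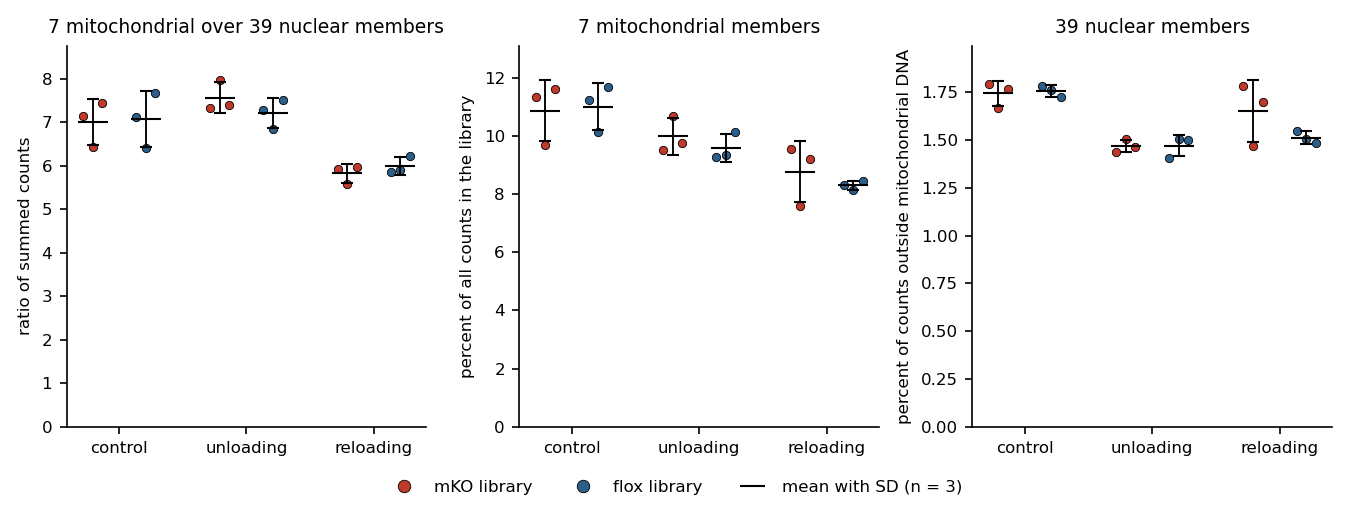
Left, ratio of summed counts of the 7 measurable mitochondrial genes over the 39 nuclear genes. Middle, those 7 genes as a percent of all counts. Right, the 39 nuclear genes as a percent of counts outside mitochondrial DNA. Points are libraries, mKO left of flox in each condition, and bars are means with SD (n = 3). The 6 reloading libraries sit at ratios of 5.59 to 6.23, below the 12 others at 6.41 to 7.97.

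Unloading against control asked what disuse does to these transcripts. Every nuclear member had a negative log2 fold change in both genotypes, with medians of -0.22 in mKO and -0.28 in flox muscle, against -0.01 and -0.00 over all tested genes. In mKO muscle 7 of 39 fell and none rose, where 3.66% of all tested genes were called lower and 4.09% higher. In flox muscle 10 of 39 fell and none rose, where 3.07% were called lower and 2.67% higher. Calls rest on edgeR's quasi-likelihood test with p-values adjusted over all 17833 tested genes by Benjamini and Hochberg's method, at a threshold of 0.05. Over the 13 mitochondrial genes, copied ones included, the median was -0.13 log2 in mKO and -0.24 in flox muscle. Each of the 7 measurable ones had a lower mean CPM after unloading than in control in both genotypes. None of the 13 was called in either genotype. At an unadjusted p under 0.05 there were 1 in mKO and 4 in flox muscle, and DESeq2 called 0 in both. Over all 17833 tested genes, 4182 in mKO and 3630 in flox muscle had such a p.

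In complex II, 1 of 4 members fell in mKO muscle and 2 of 4 in flox muscle. Sdhb, the iron-sulfur subunit of succinate dehydrogenase, stood at 269, 291 and 278 CPM in mKO unloading libraries, against 402, 353 and 384 CPM in mKO control libraries. In flox muscle it stood at 241, 287 and 267 CPM after unloading, against 408, 407 and 376 CPM in control. The groups did not overlap in either genotype. Unloading libraries lay wholly below control libraries for 24 of 39 nuclear members in mKO muscle, against 14% of all tested genes, and for 27 of 39 in flox muscle, against 12.8%. Sdhb fell by 0.44 ± 0.10 log2 in mKO muscle (edgeR, adjusted p = 0.00920) and by 0.58 ± 0.10 in flox muscle (adjusted p = 0.00194). Sdhc, which anchors the complex in the membrane, was at -0.23 ± 0.08 in mKO muscle (adjusted p = 0.103) and fell by 0.31 ± 0.08 in flox muscle (adjusted p = 0.0351).

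In complex III, 3 of 6 members fell, the same 3 genes in both genotypes. Uqcrfs1, the Rieske iron-sulfur protein, fell by 0.48 ± 0.12 log2 in mKO and by 0.43 ± 0.12 in flox muscle. Cyc1, the cytochrome c1 subunit, fell by 0.41 ± 0.10 in mKO and by 0.40 ± 0.10 in flox muscle. Uqcrc1, a core protein, fell by 0.30 ± 0.09 in mKO and by 0.39 ± 0.09 in flox muscle. Their adjusted p-values (edgeR) ran from 0.0179 to 0.0495. With 1 library left out, Uqcrfs1 was called in 2 of 6 fits in mKO and 0 of 6 in flox muscle. Cyc1 was called in 3 of 6 fits in mKO and 2 of 6 in flox muscle. In complex V, Atp5g3, which encodes the c subunit of the proton-driven ring, fell by 0.43 ± 0.09 in mKO (adjusted p = 0.00732) and by 0.49 ± 0.09 in flox muscle (adjusted p = 0.00386).

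In complex I, Ndufb5 fell in both genotypes, by 0.37 ± 0.09 log2 in mKO and by 0.33 ± 0.09 in flox muscle. Ndufa10, Ndufs8 and Ndufa8 passed the test in flox muscle, where Ndufa10 fell by 0.45 ± 0.09. Cycs, cytochrome c itself, fell by 0.36 ± 0.09 in mKO muscle and was at -0.28 ± 0.09 in flox muscle (adjusted p = 0.0631). No complex IV member was called in either genotype. Its most abundant one per length, Cox6a2, was at -0.13 ± 0.10 in mKO and -0.32 ± 0.10 in flox muscle. The calls at unloading were sensitive to single libraries: the mKO count was 0 without mKO unloading replicate 1, 2 without mKO control replicate 1, and 4 without mKO control replicate 3 or mKO unloading replicate 3. The flox count was 3 without flox control replicate 1, flox control replicate 2 or flox unloading replicate 1.

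Whether mKO and flox muscle differed in this step was tested as an interaction, which asks if the change itself differs between genotypes. edgeR called 0 of 39 nuclear and 0 of 13 mitochondrial members, and 0% of all tested genes. At an unadjusted p under 0.05 there were 0 in each set, against 733 of 17833 tested genes, and DESeq2 called 0.

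Reloading against unloading asked how the transcripts moved once weight was put back on the limb. In mKO muscle 12 of 39 nuclear members rose and 1 fell, where 9.53% of all tested genes were called higher and 8.81% lower. In flox muscle 3 rose and 6 fell, where 17% were called higher and 14.9% lower, so the flox shares were below or near those of all genes. Scaled by total counts, which put the median of all genes at 0.11 log2 in flox muscle, the flox balance turned round, with 10 nuclear members higher, 3 lower and a nuclear median of 0.07. With that scaling 71.8% of all called genes were higher, against 53.3% with TMM factors. With TMM factors the nuclear medians were 0.18 log2 in mKO and -0.04 in flox muscle, against 0.006 and 0.004 over all tested genes. Each of the 7 measurable mitochondrial genes had a negative log2 fold change in both genotypes, with medians of -0.21 in mKO and -0.37 in flox muscle. In flox muscle 4 of them fell, and DESeq2 called 6 of the 13 mitochondrial members and the replicate block 5. In mKO muscle edgeR called none, 1 had an unadjusted p under 0.05 and DESeq2 called 1. Over all 17833 tested genes, 5623 had such a p in mKO muscle. The interaction was again not called for any member, with 7 nuclear and 0 mitochondrial members at an unadjusted p under 0.05 and 0 by DESeq2. Of all tested genes, 1873 had such a p for the interaction.

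Among the genes that rose, Cycs led in both genotypes. It was at 387, 304 and 352 CPM in mKO reloading libraries, against 228, 261 and 236 CPM in mKO unloading libraries. In flox muscle it was at 319, 304 and 306 CPM after reloading, against 217, 226 and 253 CPM after unloading. All reloading libraries lay above all unloading libraries within each genotype, a pattern shown by 16.6% of all tested genes in mKO and 23.1% in flox muscle. The rise was 0.53 ± 0.09 log2 in mKO (edgeR, adjusted p = 0.000508) and 0.42 ± 0.09 in flox muscle (adjusted p = 0.00130). Cycs shares 99.9% identity over 946 bases with the annotated gene Gm10053, so part of its reads could belong to either.

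Ndufb10, a complex I membrane-arm subunit, rose by 0.47 ± 0.08 log2 in mKO and by 0.24 ± 0.08 in flox muscle. Ndufb5 rose by 0.37 ± 0.09 in mKO and by 0.35 ± 0.09 in flox muscle. In mKO muscle Cyc1 rose by 0.46 ± 0.10, Uqcrc1 by 0.28 ± 0.09, Atp5g1, another c-subunit gene, by 0.42 ± 0.12, Atp5g3 by 0.34 ± 0.09, Sdhd by 0.34 ± 0.10 and Sdhb by 0.33 ± 0.10. The flox values of these 6 genes, from -0.03 for Uqcrc1 to 0.22 for Sdhd, did not pass. The mKO step had 4 higher calls among nuclear members without mKO unloading replicate 1 or mKO reloading replicate 1, 8 without mKO unloading replicate 3 or mKO reloading replicate 3, and 20 without mKO reloading replicate 2. A fit on the 2 compared groups alone gave 4 calls.

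Of 8 complex IV members, 1 fell and none rose in mKO muscle and 3 fell and none rose in flox muscle. The other 7 in mKO muscle were between -0.25 for Cox6c and 0.21 for Cox7a1. Cox8b, the heart and muscle form of subunit VIII, was at 140, 102 and 127 CPM in mKO reloading libraries, against 154, 143 and 154 CPM in mKO unloading libraries. In flox muscle it was at 94.3, 98.8 and 92.4 CPM after reloading, against 148, 155 and 145 CPM after unloading. The reloading libraries were lower in both genotypes without overlap, as for 16.3% of all tested genes in mKO and 20.9% in flox muscle. Cox8b fell by 0.29 ± 0.09 log2 in mKO (edgeR, adjusted p = 0.0376) and by 0.65 ± 0.09 in flox muscle (adjusted p = 4.63e-05). Cox6c, a small accessory subunit, was at -0.25 ± 0.10 in mKO muscle (adjusted p = 0.0783) and fell by 0.38 ± 0.10 in flox muscle. In complex I, Ndufv1, which carries the NADH site, was at -0.01 ± 0.09 in mKO muscle and fell by 0.35 ± 0.09 in flox muscle, and Ndufs6 fell by 0.30 ± 0.09 in flox muscle.

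The mitochondrial calls of this step in the edgeR fit were mt-Nd2, mt-Nd4, mt-Nd5 and mt-Nd6, which encode complex I subunits. mt-Nd2 was at 7872, 7206 and 8217 CPM in flox reloading libraries, against 9997, 10110 and 11420 CPM in flox unloading libraries. It fell by 0.44 ± 0.11 log2 (edgeR, adjusted p = 0.00650), while mt-Nd4 fell by 0.37 ± 0.10, mt-Nd5 by 0.40 ± 0.14 and mt-Nd6 by 0.43 ± 0.15. In flox muscle mt-Nd1 was at -0.27 ± 0.11, mt-Co1 at -0.28 ± 0.12 and mt-Cytb at -0.27 ± 0.13, and none of these passed in that fit. For all 7 genes the 3 reloading libraries lay below the 3 unloading libraries in flox muscle, as for 20.9% of all tested genes. In mKO muscle, where 16.3% of all tested genes did so, mt-Nd2 and mt-Nd4 showed this and the other measurable genes overlapped. In fits that left out 1 library, 2 or 3 mitochondrial genes were called. Of these 6 fits, mt-Nd2 and mt-Nd4 were called in all 6, mt-Nd5 in 1 and mt-Nd6 in 0.

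Reloading against control asked how far the transcripts were from the level of caged mice. In mKO muscle 2 of 39 nuclear members were lower, Cox8b and Cox6c, where 0.841% of all tested genes were called lower and 1.34% higher. In flox muscle 24 of 39 fell and none rose, where 10.3% of all tested genes were called lower and 12.3% higher. The nuclear medians were -0.07 log2 in mKO and -0.34 in flox muscle, against -0.00 and 0.00 over all tested genes. All 7 measurable mitochondrial genes fell in flox muscle, with a median of -0.64. In mKO muscle their median was -0.34 and edgeR called none, although 6 had an unadjusted p under 0.05 and DESeq2 called 3. Over all 17833 tested genes, 2858 had such a p in mKO muscle.

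By complex, the flox calls covered 9 of 16 nuclear members in complex I, 2 of 4 in complex II, 3 of 6 in complex III, 8 of 8 in complex IV and 2 of 4 in complex V. Cycs was not among them, at 0.17 ± 0.09 log2 in mKO and 0.13 ± 0.09 in flox muscle. Within complex IV, Cox8b fell by 0.50 ± 0.09 in mKO muscle (edgeR, adjusted p = 0.00959) and by 0.82 ± 0.09 in flox muscle (adjusted p = 1.26e-05). Cox7a1 was at -0.22 ± 0.16 in mKO muscle (adjusted p = 0.542) and fell by 0.65 ± 0.16 in flox muscle (adjusted p = 0.00701). Ndufa4, first assigned to complex I and counted here with complex IV, fell by 0.35 ± 0.10 in flox muscle.

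In the other complexes of flox muscle, Ndufv1 fell by 0.52 ± 0.09 log2, Ndufs6 by 0.44 ± 0.09, Sdhb by 0.43 ± 0.10, Sdha, the flavoprotein of succinate dehydrogenase, by 0.41 ± 0.10, Uqcrq by 0.61 ± 0.17 and Uqcrfs1 by 0.44 ± 0.12. Atp5b fell by 0.38 ± 0.08 and Atp5g3 by 0.29 ± 0.09. The corresponding mKO values ran from -0.33 for Uqcrfs1 to -0.07 for Atp5b, and none passed. The flox count among nuclear members was 13 without flox reloading replicate 2 and 15 without flox control replicate 1 or 2. Scaled by total counts, which moved the median of all genes by 0.146 log2, it was 10 lower and 1 higher, and 80.5% of all called genes were then higher, against 54.4% with TMM factors.

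Among the mitochondrial genes, mt-Nd6 was at 1996, 1819 and 1983 CPM in flox reloading libraries, against 3597, 3074 and 3584 CPM in flox control libraries. mt-Co1 was at 28230, 29610 and 30580 CPM in flox reloading libraries, against 43290, 38360 and 43090 CPM in flox control libraries. mt-Nd4 was at 5753, 5226 and 5587 CPM in flox reloading libraries, against 8593, 8414 and 8768 CPM in flox control libraries. None of these groups overlapped, as for 19.2% of all tested genes among those lower. In mKO muscle mt-Nd6 was at -0.48 ± 0.15 log2, mt-Nd5 at -0.38 ± 0.14 and mt-Nd1 at -0.21 ± 0.11. In flox muscle mt-Nd6 fell by 0.82 ± 0.15, mt-Nd5 by 0.69 ± 0.14, mt-Nd2 by 0.68 ± 0.11, mt-Nd4 by 0.64 ± 0.10, mt-Cytb by 0.51 ± 0.13, mt-Co1 by 0.50 ± 0.12 and mt-Nd1 by 0.45 ± 0.11. The flox adjusted p-values ran from 0.000255 for mt-Nd4 to 0.00832 for mt-Cytb.

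Markers of other cells moved with the changes at reloading, and their part in them was not tested. In mKO reloading against mKO control 1.34% of all tested genes were called higher and 0.841% lower. In flox reloading against flox control it was 12.3% higher and 10.3% lower. Of 11 macrophage markers, 1 was called higher and none lower in mKO reloading against mKO control, and 10 higher and none lower in flox reloading against flox control. Their summed level was 161 to 232 CPM in mKO reloading and 140 to 212 CPM in mKO control libraries, and 322 to 485 CPM in flox reloading and 164 to 181 CPM in flox control libraries. Of 5 endothelial markers, 1 was called higher in mKO and 3 in flox muscle in the same comparisons, and none lower. Their sum was 292 to 315 CPM in mKO reloading and 266 to 304 CPM in mKO control libraries, and 342 to 387 CPM in flox reloading and 267 to 295 CPM in flox control libraries. Of 8 muscle fibre genes, none was called in mKO reloading against mKO control, and 5 fell and none rose in flox reloading against flox control. Their sum was 123500 to 151400 CPM in mKO reloading and 128000 to 150600 CPM in mKO control libraries, and 106800 to 122600 CPM in flox reloading and 129900 to 143300 CPM in flox control libraries.

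The same markers also moved in reloading against unloading. Among all tested genes 9.53% were called higher and 8.81% lower in mKO muscle, and 17% higher and 14.9% lower in flox muscle. Macrophage markers called higher numbered 4 of 11 in mKO and 9 of 11 in flox muscle, and endothelial ones 2 of 5 in mKO and 4 of 5 in flox muscle, with none lower. The unloading libraries had macrophage sums of 110 to 162 CPM in mKO and 155 to 181 CPM in flox muscle, and endothelial sums of 252 to 274 CPM in mKO and 258 to 267 CPM in flox muscle. Of the 8 muscle fibre genes, 1 rose and 1 fell in mKO muscle, and 1 rose and 5 fell in flox muscle.

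**Figure D3:**
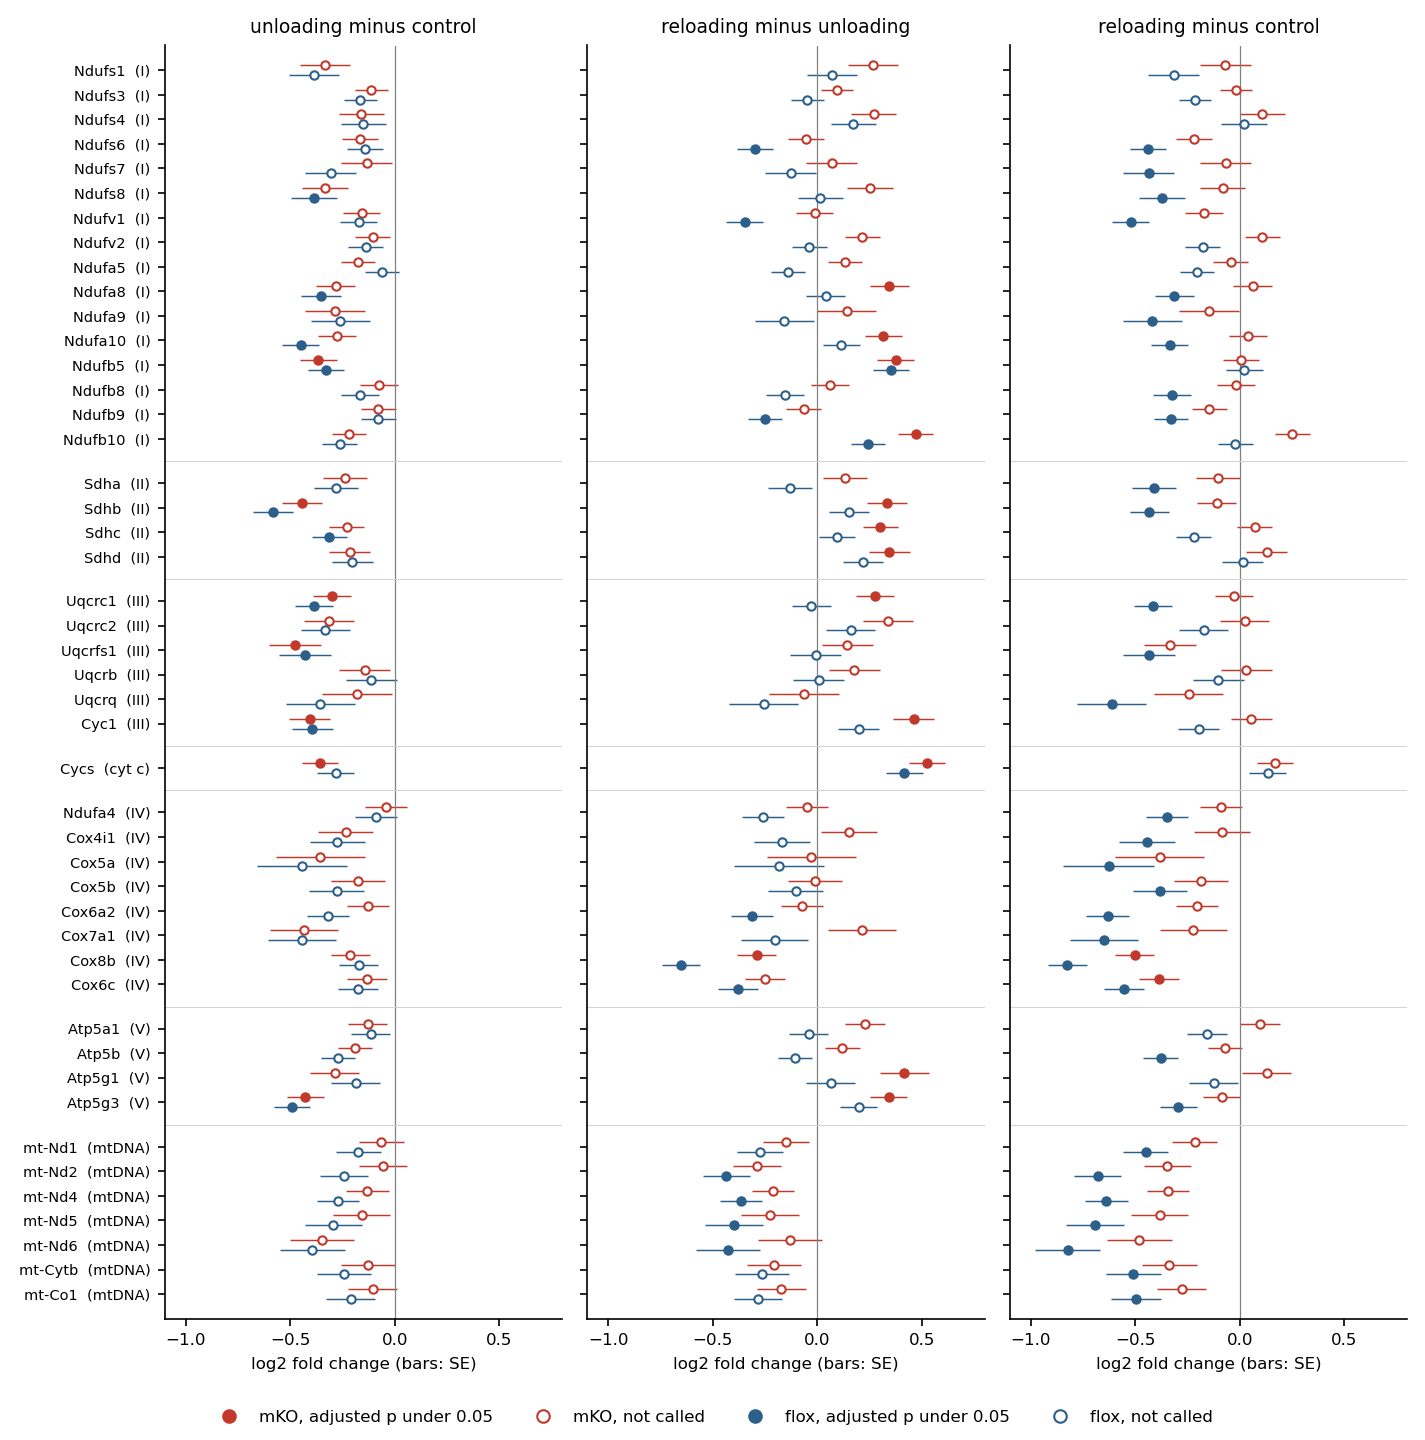
Log2 fold changes (x) with SE bars for the 39 nuclear members, grouped by complex, and the 7 measurable mitochondrial members (mtDNA), in 3 comparisons. For each gene the mKO point stands above the flox point, and filled points have an adjusted p under 0.05. In the left panel all 39 nuclear points of both genotypes are below 0. In the middle panel the 7 mitochondrial points of both genotypes are below 0 while 12 nuclear members rose in mKO muscle. In the right panel 24 nuclear and 7 mitochondrial members fell in flox muscle and 2 nuclear members fell in mKO muscle.

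Complex IV has subunits with paired genes, one used mainly in striated muscle and one used widely. Cox6a2, Cox7a1 and Cox8b are the muscle forms, and Cox6a1, Cox7a2 and Cox8a their widely used partners. In flox reloading against flox control the 3 muscle forms fell by 0.63 ± 0.10, 0.65 ± 0.16 and 0.82 ± 0.09 log2, while the widely used forms were at 0.15 ± 0.18 for Cox6a1, 0.06 ± 0.12 for Cox7a2 and 0.10 ± 0.20 for Cox8a, and did not pass. The ratio of RPKM between the partners removes any scaling between libraries. Cox7a1 over Cox7a2 was 2.33, 1.66 and 2.01 in mKO reloading libraries, against 2.60, 2.51 and 2.49 in mKO control libraries. In flox muscle it was 1.61, 1.69 and 1.61 after reloading, against 2.56, 2.74 and 2.78 in control. The unloading libraries stood at 2.57, 2.15 and 2.27 in mKO and at 2.20, 2.14 and 2.13 in flox muscle.

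Reloading libraries were lower than control libraries in both genotypes for this pair, without overlap. The difference in its log2 ratio was -0.36 ± 0.14 in mKO and -0.72 ± 0.04 in flox muscle (SE, exact two-sided permutation test, p = 0.1 in each, the smallest that 3 against 3 libraries can give). In flox muscle part of it was present after unloading, where the ratio was already below control without overlap, at -0.32 ± 0.04 (exact p = 0.1), and reloading against unloading added -0.40 ± 0.03 (exact p = 0.1). In mKO muscle those steps were -0.12 ± 0.08 and -0.23 ± 0.16, and both overlapped (exact p = 0.3 each). For Cox6a2 over Cox6a1 the mean ratio was 28.5 ± 7.46 in mKO reloading and 36.5 ± 2.80 in mKO control libraries, and 21.2 ± 1.56 in flox reloading and 36.5 ± 3.01 in flox control libraries (SD, n = 3). For Cox8b over Cox8a it was 9.35 ± 4.31 in mKO reloading and 13.1 ± 1.73 in mKO control libraries, and 6.12 ± 1.16 in flox reloading and 11.4 ± 1.40 in flox control libraries. In mKO muscle the libraries of both pairs overlapped (exact p = 0.2 and 0.3), and in flox muscle both pairs were lower after reloading without overlap (exact p = 0.1). The mKO minus flox differences at reloading, from 0.27 to 0.53 on the log2 scale, overlapped between genotypes in all 3 pairs (exact p = 0.2 to 0.3). These are 3 of 27 exact tests of the 3 pairs, none of which can pass 0.05.

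**Figure D4:**
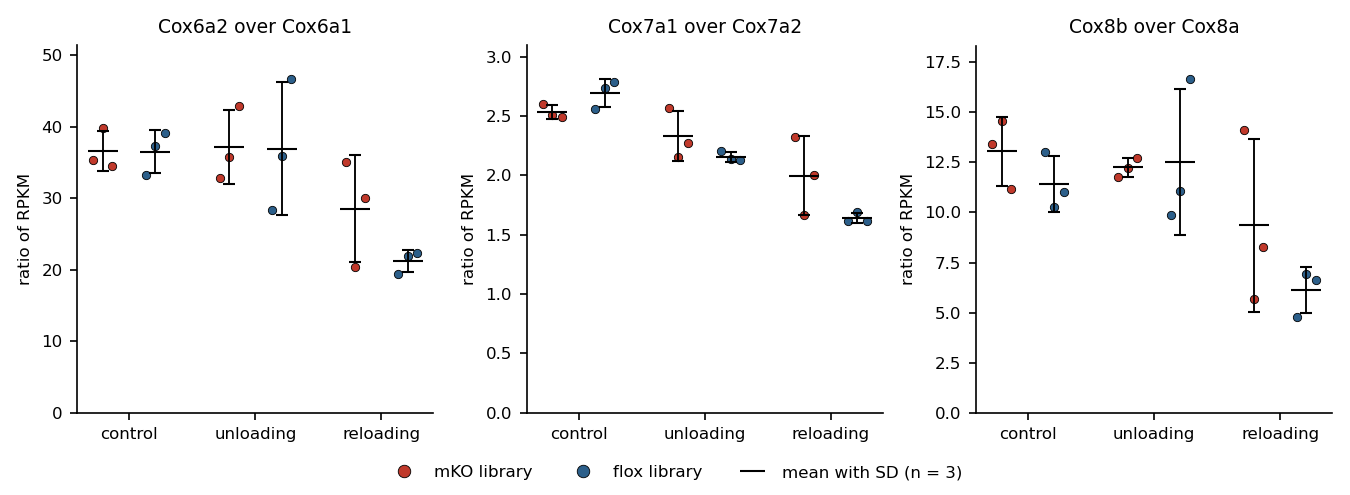
Ratio of RPKM of the muscle form over the widely used form of 3 complex IV subunits, with points for libraries, mKO left of flox, and bars for means with SD (n = 3). In flox muscle the 3 reloading libraries lie below the 3 control libraries in each panel, and in mKO muscle they do so for Cox7a1 over Cox7a2.

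Other subunits also have paired genes. Cox4i1, the main form of subunit IV, fell by 0.44 ± 0.13 log2 in flox reloading against flox control, whereas Cox4i2, its hypoxia-linked partner, was at 0.37 ± 0.27 with a mean level of only 1.74 RPKM. Among the 3 c-subunit genes, which encode the same mature protein, Atp5g3 was the most abundant at 197 RPKM, with Atp5g2 at 65.0 and Atp5g1 at 53.8 RPKM. Ndufa4l2, the low-oxygen relative of Ndufa4, was at 5.98 RPKM.

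The genotypes were compared directly within each condition. In control muscle edgeR called 0 of the 52 members, with 0 at an unadjusted p under 0.05 and 0 by DESeq2, where 0% of all tested genes were called, and the nuclear median was 0.00 log2. After unloading the result was the same, with 0 calls by either tool, 0 at an unadjusted p under 0.05 and a nuclear median of 0.04. Of all 17833 tested genes, 718 in control muscle and 816 after unloading had such a p. At reloading all 39 nuclear members had a positive mKO minus flox log2 fold change, from 0.07 to 0.43 with a median of 0.26. Of all tested genes 50.75% were positive, with a median of 0.005. Of the 39 members 2 passed, Cox8b and Uqcrc1, where 1.06% of all tested genes were called higher and 3.85% lower. The 7 measurable mitochondrial genes were at 0.17 to 0.31. edgeR called none of the 13 mitochondrial members, with 3 at an unadjusted p under 0.05 and 0 by DESeq2. Of all 17833 tested genes, 3519 had such a p at reloading.

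Cox8b was at 140, 102 and 127 CPM in mKO reloading libraries, against 94.3, 98.8 and 92.4 CPM in flox reloading libraries. Uqcrc1 was at 610, 479 and 620 CPM in mKO reloading libraries, against 458, 446 and 445 CPM in flox reloading libraries. Neither gene overlapped between the genotypes, which 13 of 39 nuclear members showed in this direction and 9.58% of all tested genes. Cox8b was higher by 0.37 ± 0.09 log2 (edgeR, adjusted p = 0.0292) and Uqcrc1 by 0.34 ± 0.09 (adjusted p = 0.0366). Cox7a1, with the largest difference of all at 0.43 ± 0.16, did not pass (adjusted p = 0.142).

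The nuclear count changed whichever library of the compared groups was left out. Without mKO reloading replicate 2, 25 of 39 nuclear members and 4 of 13 mitochondrial members were called higher in mKO than in flox reloading muscle, where 9.26% of all tested genes were called. Leaving out mKO reloading replicate 1 or 3, or flox reloading replicate 2 or 3, gave 0 of 39, and leaving out flox reloading replicate 1 gave 1. Those fits called 0.763% to 4.6% of all tested genes. DESeq2 on all libraries called 11 of 39, and the fit on the 2 compared groups alone 0. Over all genes they called 1380 and 454, against 875 in the edgeR fit on all libraries. Scaled by total counts, which moved the median of all genes by -0.134, none was called, the nuclear median was 0.12 with 1 member negative, and 2.42% of all called genes were higher, against 21.6% with TMM factors. Macrophage markers moved in the opposite direction, with 9 of 11 called lower in mKO than in flox reloading muscle. Of 8 muscle fibre genes, 2 were called higher. Their sum was 123500 to 151400 CPM in mKO reloading and 106800 to 122600 CPM in flox reloading libraries, without overlap. Among all tested genes 3.85% were called lower and 1.06% higher. The part of these markers in the subunit differences was not tested.

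The interaction for reloading against control asked whether the loading response differed between genotypes. Its log2 value, mKO change minus flox change, was positive for 38 of 39 nuclear members, with a median of 0.26, and for all 7 measurable mitochondrial genes, with a median of 0.29. These signs share the same 12 libraries and are a description. Of all tested genes 50.92% were positive, with a median of 0.006. Scaled by total counts, which moved the median of all genes by -0.137, the nuclear median was 0.11 with 6 members negative, and the median of the 13 mitochondrial members was 0.15, against 0.30 with TMM factors. edgeR called none of the 52 members, where 0.0224% of all tested genes were called higher and 0.499% lower. At an unadjusted p under 0.05 there were 13 nuclear and 0 mitochondrial members, and DESeq2 called 0. Of all 17833 tested genes, 2364 had such a p. Without mKO reloading replicate 2 edgeR called 8 of 39 nuclear members, where 2.63% of all tested genes were called. The smallest adjusted p-values among nuclear members, picked after seeing them, were 0.178 for Uqcrc1 at 0.39 ± 0.13 and 0.182 for Cox6a2 at 0.43 ± 0.14 (edgeR).

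**Figure D5:**
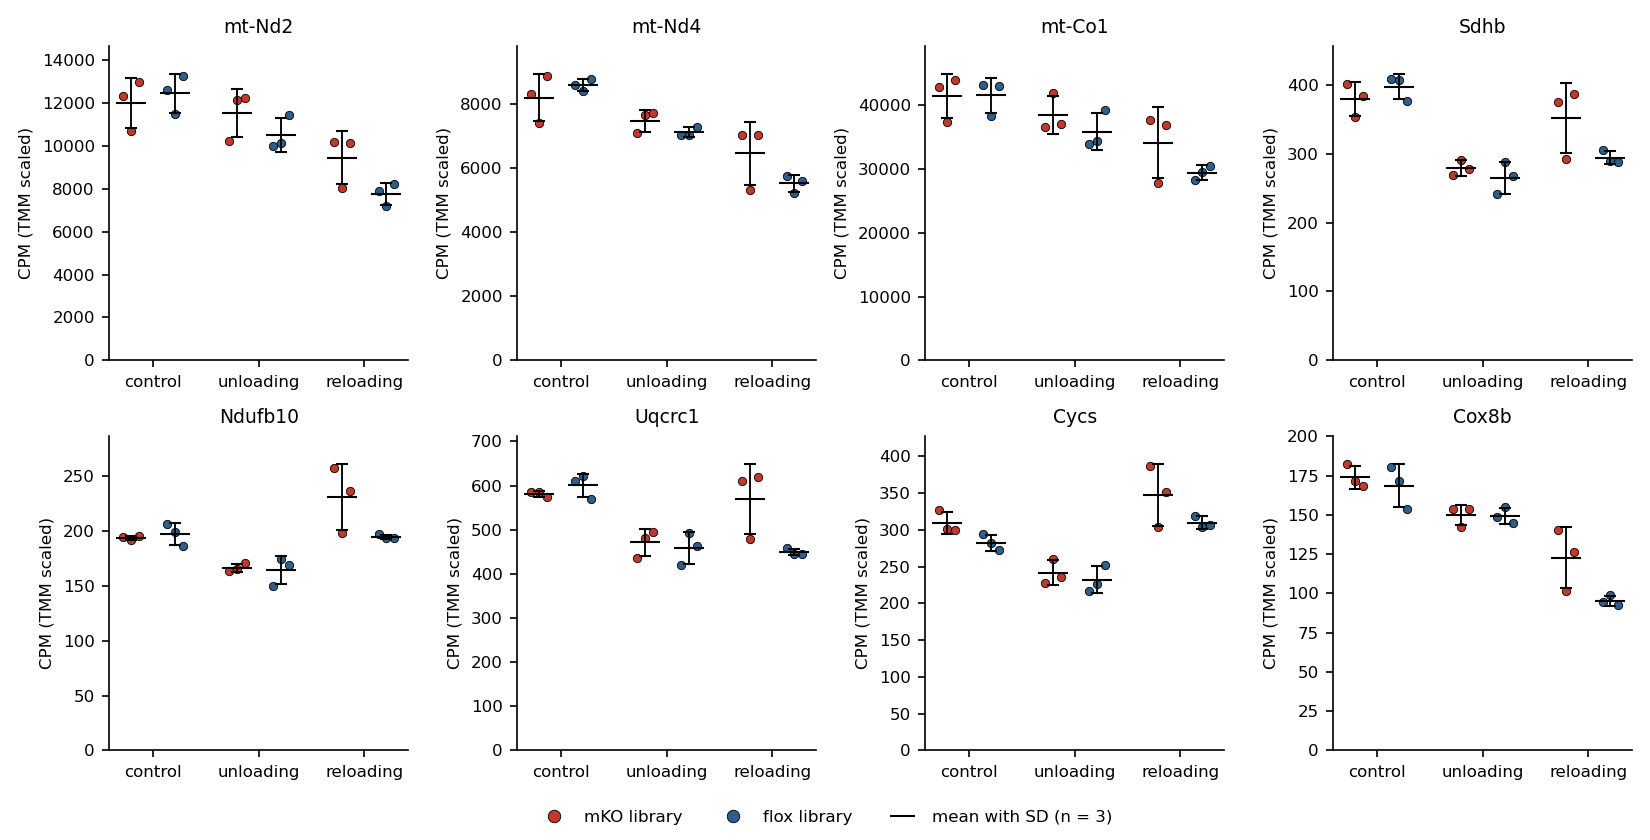
CPM of 3 mitochondrial and 5 nuclear members in the 18 libraries, mKO left of flox in each condition, with means and SD (n = 3). mt-Nd2, mt-Nd4 and mt-Co1 are lowest at reloading, whereas Sdhb, Ndufb10 and Cycs are lowest after unloading, and Cox8b at reloading lies between 92.4 and 98.8 CPM in flox muscle and 102 to 140 CPM in mKO muscle.

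Promoters are shown for Uqcrc1 and Cox8b because edgeR called these 2 members between genotypes at reloading, a count that ran from 0 to 25 when 1 library was left out. RefSeq sequences (GRCm38.p6) from 250 bases before to 50 after the gene start were available for 28 of the 39 nuclear members. Sequences of Ndufs1, Ndufb9, Sdhc, Uqcrc2, Uqcrb, Uqcrq, Cyc1, Cox4i1, Cox6a2, Cox6c and Atp5a1 were not used here. Both strands were searched for short words bound by known factors. The NRF1 word (GCGCA, any base, GCGC), bound by a factor known for driving respiratory genes, was present in 7 of 28 members (25%) and in 5.19% of 27025 genes. AAGATGGC, a YY1 word, was present in 17.9% and 3.19%, CCGGAAG, an ETS word bound by GABP, in 14.3% and 9.93%, and AAGGTCA, an ERR word, in 7.14% and 5.38%. CAGCTG, an E-box, was present in 17.9% and 18.3%, and the MEF2 word (CTA and TAG with any 4 bases between) in 3.57% and 4.23%. The CAGCTG word reads the same on both strands, the words do not contain one another, and a match describes letters and not binding. Uqcrc1 (chr9:108936398-108936697, plus strand) held 2 NRF1 words, starting 5 and 30 bases after the start, and Cox8b (chr7:140900397-140900696, minus strand) held none and had E-boxes at -19 and 16. Both are printed 5′ to 3′ with those words in capitals.
Uqcrc1: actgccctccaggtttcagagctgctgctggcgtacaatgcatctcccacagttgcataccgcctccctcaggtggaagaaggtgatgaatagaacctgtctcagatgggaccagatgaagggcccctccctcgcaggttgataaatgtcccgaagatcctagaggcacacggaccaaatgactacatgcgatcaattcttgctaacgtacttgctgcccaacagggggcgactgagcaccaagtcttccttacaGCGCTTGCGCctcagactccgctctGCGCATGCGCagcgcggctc
Cox8b: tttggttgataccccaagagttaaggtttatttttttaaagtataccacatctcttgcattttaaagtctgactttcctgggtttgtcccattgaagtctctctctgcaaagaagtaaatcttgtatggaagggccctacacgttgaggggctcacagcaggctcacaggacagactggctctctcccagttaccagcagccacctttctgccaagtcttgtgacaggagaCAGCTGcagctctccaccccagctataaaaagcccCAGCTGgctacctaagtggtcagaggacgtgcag

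The other subunits of the same complexes gave the members a wider setting. Of 41 further nuclear subunit genes, 2 fell and none rose in mKO reloading against mKO control, with a median of -0.09 log2, and 22 fell and none rose in flox reloading against flox control, with a median of -0.35. Of all tested genes 0.841% were called lower in mKO and 10.3% in flox muscle. The flox falls were led by Ndufc1 at -0.71 ± 0.09, Uqcr11 at -0.65 ± 0.10 and Atp5e at -0.65 ± 0.09. In reloading against unloading, 4 rose and none fell in mKO muscle, and none rose and 14 fell in flox muscle, where 9.53% of all tested genes were called higher in mKO and 14.9% lower in flox muscle. Directly between genotypes at reloading, 6 of the 41 were higher in mKO muscle, against 1.06% of all tested genes, among them Ndufa13 at 0.39 ± 0.10, Ndufc1 at 0.38 ± 0.09 and Ndufb4 at 0.36 ± 0.08.

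Assembly factors build the complexes without being part of them. Of 44 measured, 8 fell and none rose in mKO unloading against mKO control, and 10 fell and none rose in flox unloading against flox control, where 3.66% and 3.07% of all tested genes were called lower. After reloading, against unloading, 15 rose and none fell in mKO muscle, where 9.53% of all tested genes were called higher. In flox muscle 10 rose and 5 fell, where 17% were called higher and 14.9% lower. Bcs1l, which inserts the Rieske protein into complex III, rose by 0.81 ± 0.12 log2 in mKO (edgeR, adjusted p = 0.00028) and by 0.66 ± 0.12 in flox muscle. Taco1, needed for translation of mt-Co1, rose by 0.65 ± 0.09 and Coa3, a complex IV factor, by 0.58 ± 0.08 in mKO muscle. Sco1, which delivers copper to complex IV, rose by 0.61 ± 0.11 and Ndufaf2, a complex I factor, by 0.53 ± 0.12 in flox muscle. Against control at reloading, 1 rose and none fell in mKO muscle, Ndufaf4 at 0.35 ± 0.09, and none rose and 4 fell in flox muscle, led by Ndufaf5 at -0.64 ± 0.11, where 1.34% of all tested genes were called higher in mKO and 10.3% lower in flox muscle.

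The next group copies, transcribes and translates mitochondrial DNA. Of 31 measured, 9 rose and none fell in mKO reloading against mKO unloading, and 4 rose and 5 fell in flox reloading against flox unloading. The shares of all tested genes were again 9.53% higher in mKO muscle, and 17% higher and 14.9% lower in flox muscle, so the flox counts were near those of all genes. Tfb1m, an rRNA methyltransferase, rose by 0.75 ± 0.12 log2 in mKO and by 0.60 ± 0.12 in flox muscle. Polrmt, the mitochondrial RNA polymerase, was at -0.31 ± 0.12 in mKO muscle (edgeR, adjusted p = 0.0751) and fell by 0.59 ± 0.12 in flox muscle (adjusted p = 0.000807). Polg2, the accessory subunit of the DNA polymerase, fell by 0.54 ± 0.13 in flox muscle. In mKO reloading against mKO control 1 fell and none rose, Tfb2m, the transcription factor that melts the promoter, at -0.34 ± 0.08. In flox reloading against flox control 7 fell and none rose, with Polrmt at -0.63 ± 0.12, Tfb2m at -0.49 ± 0.08 and Polg, the DNA polymerase, at -0.47 ± 0.09, where 10.3% of all tested genes were called lower. Of 77 measured mitochondrial ribosomal protein genes, 21 rose and 1 fell in mKO reloading against mKO unloading, and 12 rose and 1 fell in flox reloading against flox unloading, the flox rises being near the 17% of all tested genes.

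Nuclear regulators of these genes were also counted. Of 16, 3 rose and 1 fell in mKO reloading against mKO unloading, and 4 rose and none fell in flox reloading against flox unloading, where 9.53% of all tested genes were called higher in mKO and 17% in flox muscle. Ppargc1b, a coactivator of respiratory genes, fell at unloading by 0.51 ± 0.12 log2 in mKO and by 0.56 ± 0.12 in flox muscle. It rose in reloading against unloading by 0.83 ± 0.12 in mKO and by 0.77 ± 0.12 in flox muscle. Its better known relative Ppargc1a was not called, at -0.00 ± 0.11 in mKO and -0.05 ± 0.11 in flox muscle for that step. Esrra, the nuclear receptor ERRα, was at -0.08 ± 0.12 in mKO reloading against mKO control and fell by 0.44 ± 0.12 in flox reloading against flox control (edgeR, adjusted p = 0.0108). Hif1a, the oxygen-sensing factor, rose by 0.34 ± 0.07 in flox reloading against flox control and was lower by 0.31 ± 0.07 in mKO than in flox reloading muscle.

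Markers of mitochondrial mass outside the respiratory chain did not move as one. Of 19, 6 rose and none fell in mKO reloading against mKO unloading, and 5 rose and 4 fell in flox reloading against flox unloading. Of all tested genes 9.53% were called higher in mKO muscle, and 17% higher and 14.9% lower in flox muscle. Ckmt2, the mitochondrial creatine kinase, rose by 1.17 ± 0.17 log2 in mKO and by 0.89 ± 0.17 in flox muscle. Vdac1, the main outer-membrane pore, fell by 0.49 ± 0.10 in flox muscle. In flox reloading against flox control Vdac1 fell by 0.70 ± 0.10, whereas Slc25a5, an ADP/ATP carrier, rose by 0.66 ± 0.10. Of 9 slow and oxidative fibre genes, 2 rose and none fell in the reloading step in each genotype, against the same shares of all genes, with Myh2, the fast oxidative myosin, at 1.75 ± 0.29 in mKO and 1.05 ± 0.29 in flox muscle.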

How the data were processed

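Per the labels' protocols, poly(A) RNA was made into Illumina TruSeq Stranded mRNA libraries. Per the submitters' processing notes, alignment used STAR 2.7.3a and GRCm38.p6, and counting featureCounts 2.0.3. The header of the deposited table names featureCounts 1.6.4 with Ensembl release 94 and shows no option for strand, read pairs, overlaps or reads with several places. The deposited values are raw counts per gene, and 4 deposited DESeq2 tables were not used. Members and lists were chosen with earlier results of these data known.

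Counts were tested with edgeR 4.0.16 (R 4.3.3): TMM factors, its default low-count filter, 1 quasi-likelihood model with 6 group means and 12 residual degrees of freedom, and 12 contrasts. The SE is the log2 fold change divided by the square root of its F statistic. RPKM is CPM per kilobase of the exon length in the table. Named were the 2 called nuclear members per complex with the largest change in each comparison (the most abundant where none was called), all mitochondrial members, the isoform pairs, and, from other lists, up to 3 called genes (the 2 most abundant where none was called). Of 39 nuclear members, 12 have a transcript of another gene of at least 98% identity over 100 bases: Atp5g1, Cox4i1, Cox5a, Cox5b, Cycs, Ndufb5, Ndufb8, Ndufb9, Ndufs1, Ndufs3, Uqcrb and Uqcrc2, whose values are uncertain. Alternatives were RLE factors, total counts, scaling without mitochondrial genes, no filter, 1 CPM in 3 libraries, a replicate block, only the compared groups, DESeq2 1.42.0, and leaving out each library. The test was tried on simulated data.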

Additional observations from a re-analysis of the deposited data

Results flagged for a closer look

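Among the members, no interaction between genotype and loading passed. In the accompanying lists 3 genes did, each by the edgeR test of the difference in reloading against control. That test called 0.0224% of all tested genes higher and 0.499% lower. Without flox reloading replicate 1 it called 0% of them, so these 3 calls did not hold in that fit. The share was also low, at 0.0224%, without mKO reloading replicate 3, and at 0.028% without flox reloading replicate 2. It was 0.673% without mKO control replicate 1, 0.735% without flox reloading replicate 3 and 2.63% without mKO reloading replicate 2. These shares do not single out 1 library behind the 3 calls. Fastkd1, a protein that acts on mitochondrial RNA, had an interaction of 0.60 ± 0.10 log2 (adjusted p = 0.0223). It stood at 24.4, 22.7 and 23.5 CPM in mKO reloading libraries, against 18.8, 21.2 and 20.3 CPM in mKO control libraries. In flox muscle it stood at 17.7, 19.7 and 18.4 CPM in reloading libraries, against 22.9, 25.0 and 24.2 CPM in control libraries. The change was 0.23 ± 0.07 in mKO muscle, which did not pass (edgeR, adjusted p = 0.0963). In flox muscle it was -0.37 ± 0.07 (adjusted p = 0.0011). The macrophage markers C1qb and Mrc1 had interactions of -1.38 ± 0.27 and -1.01 ± 0.20 (edgeR, adjusted p = 0.0345 each).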

How the results depend on the processing

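Counts of called members moved with the processing. Without a low-count filter the nuclear counts were 12 for mKO and 17 for flox unloading against control, 4 for mKO reloading against control and 8 for mKO against flox at reloading. The mitochondrial counts, all from 13 genes with copied ones included, were then 3 for mKO and 4 for flox unloading against control, 3 for mKO and 8 for flox reloading against unloading, 7 for mKO reloading against control, and 4, 1 and 3 for mKO against flox in control, unloading and reloading. For the interactions they were 3 (unloading against control), 2 (reloading against unloading) and 2 (reloading against control). Over all genes the calls moved too. Without the filter they numbered 1876 for mKO and 1651 for flox unloading against control, against 1382 and 1024 with it. For reloading against unloading they were 3516 and 5578, against 3270 and 5692. For mKO reloading against control they were 1216 against 389. For mKO against flox they were 148, 133 and 1557 in control, unloading and reloading, against 0, 0 and 875. For the interactions they were 122, 564 and 755, against 0, 0 and 93. With total counts the nuclear counts were 11 for flox reloading against control and 0 for mKO against flox at reloading, and the mitochondrial counts 1 for mKO and 2 for flox reloading against unloading and 1 for mKO reloading against control. With only the compared groups the nuclear counts were 4 for mKO reloading against unloading, 0 for mKO reloading against control and 0 for mKO against flox at reloading, and the mitochondrial count was 1 for flox unloading against control. DESeq2 gave 11 nuclear members for mKO against flox at reloading, and 1 and 3 mitochondrial members for mKO reloading against unloading and against control. Over all genes, total counts gave 4539 calls for flox reloading against control and 1485 for mKO against flox at reloading. With TMM factors these were 4035 and 875. In the comparisons of the 3 mitochondrial counts it gave 3047, 5556 and 367, against 3270, 5692 and 389. The compared groups alone gave 2048 and 136 for mKO reloading against unloading and against control, and 454 for mKO against flox at reloading. The fit over all 18 libraries gave 3270, 389 and 875. The cause was not tested.

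Leaving out 1 library, nuclear counts ran from 0 to 7 (mKO) and 3 to 8 (flox) for unloading against control, 4 to 20 and 5 to 9 for reloading against unloading, and 1 to 2 and 13 to 21 for reloading against control. For mKO against flox at reloading they ran from 0 to 25, and for the interactions 0 to 1 (reloading against unloading) and 0 to 8 (reloading against control). Mitochondrial counts ran from 2 to 3 for flox reloading against unloading, 7 to 8 for flox reloading against control and 0 to 4 for mKO against flox at reloading. These fits called 2.87 to 8.35% (mKO) and 2.1 to 4.64% (flox) of all tested genes for unloading against control. For reloading against unloading it was 11.6 to 18.3% and 24 to 29%, and for reloading against control 0.482 to 2.23% and 15.7 to 20.5%. For mKO against flox at reloading it was 0.763 to 9.26%. For the interactions it was 0 to 0.561% (reloading against unloading) and 0 to 2.63% (reloading against control). Of 53 named member and comparison pairs, 29 were called in every such fit. Of 477 alternative values of these pairs, 45 no longer passed and 0 changed sign.

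Replicate numbers were shared between groups, but same-numbered libraries correlated at -0.074 to 0.126 in 45 pairs, with 2 over 0.1, and 9 of 18 libraries correlated best with their own number. The median correlation was 0.024 for same-numbered pairs and -0.004 for other pairs. The labels do not say what the numbers mean, and correlations this weak cannot settle whether they pair the libraries. A replicate block gave 4 nuclear members for mKO against flox at reloading and 2 mitochondrial members for mKO reloading against unloading. Over all genes it called 986 and 3454 in these comparisons, against 875 and 3270 without it.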
